A study of Mus musculus with 20 samples.

Results

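The RUFY genes encode adaptor proteins named for their RUN domain and their FYVE-type zinc finger. Rufy1, Rufy2 and Rufy3 were taken by gene symbol and make up 3 of the 14924 genes with RNA-Seq and POL-Seq counts. Together they hold 5 of the 11338 separate 3′ ends in the 3′ end count table. They were chosen by the 3′ end counts, because Rufy3 had shown a change in the share of its distal end after HuD induction. The 3′ end differences between induced and control cells are therefore given as a description, with no test. The levels in total and polysomal RNA come from other libraries and were tested.

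The series holds 20 libraries of NSC-34 cells, a mouse hybrid line of neuroblastoma and embryonic spinal cord cells used as a model of motor neurons. HuD cells carried the tetracycline repressor (Trex) and a lentiviral construct for His-HA tagged human HuD, the neuronal RNA-binding protein encoded by Elavl4, which tetracycline switches on. For 3′ end sequencing (3 HuD and 3 control libraries), RNA-Seq of total RNA (2 and 2) and POL-Seq of polysomal RNA (2 and 2), HuD cells received 2 μg/ml tetracycline for 48 h, and the labels give no tetracycline dose for the control cells. For CRAC, which crosslinks the tagged protein to RNA and reads the bound fragments, HuD cells and control Trex cells both received 10 μg/ml for 24 h (3 and 3). The study's methods call the replicates biological for POL-Seq, RNA-Seq and the 3′ end libraries. Polysomal control library 2 stood apart from the other 7 RNA-Seq and POL-Seq libraries. The SD of its log2 CPM differences from them, over the 9702 genes with a mean of at least 10 CPM, had a median of 0.288, against 0.178 to 0.224 for the others. Results of the main test that rest on it are given with and without it for the 3 RUFY genes and counts of adjusted calls. Counts at an unadjusted p, percentages over all genes and results of alternative models are given only with it. So are polysomal and ratio values of other listed genes, and correlations between genes.

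RUFY proteins act on the traffic of endosomes and lysosomes, where they connect small GTPases such as Rabs and Arl8 with motor proteins and membranes. RUFY1 is known for its part in early endosomes and the recycling of cargo. RUFY2 is a related endosomal protein, prominent in brain. RUFY3, also called Singar1, is abundant in neurons, where it is known for a part in keeping the number of axons and for coupling lysosomes to dynein. A gene may end its transcripts at several places, and a change between 3′ ends within 1 terminal exon alters only the untranslated region (3′ UTR), while a change between terminal exons also alters the end of the protein. ELAV proteins bind U-rich RNA, mainly in 3′ UTRs, and in the nucleus they are known to influence splicing and the choice of poly(A) site.

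Rufy3 had 3 separate 3′ ends and belonged to the kind of gene in which both the 3′ UTR and the protein end can change. Ends listed 1 nt apart count nearly the same reads, so ends within 20 nt were merged and represented by the end with the highest count. Rufy3 (ENSMUSG00000029291) lies on the plus strand of GRCm38 at chr5:88565040-88651392. Ends 1 (88640928, transcript Rufy3-004) and 2 (88642696, Rufy3-001) lie 1768 nt apart in 1 terminal exon that starts at 88640589 and holds the stop codon at 88640659-88640661. Their 3′ UTRs after that stop codon were 267 and 2035 nt long. End 3 (88651392, Rufy3-002) lies 8696 nt beyond end 2. Its transcript skips that exon and reads 6 further exons, the last from 88649832, with a stop codon at 88649973-88649975 and a 3′ UTR of 1417 nt. After the last shared exon (88638981-88639078), transcripts to ends 1 and 2 have 70 coding nt and those to end 3 have 520. The annotated proteins hold 487 (Rufy3-004), 469 (Rufy3-001) and 669 codons (Rufy3-002). Rufy1 (ENSMUSG00000020375, minus strand, chr11:50389286-50431125) and Rufy2 (ENSMUSG00000020070, plus strand, chr10:62980223-63017210) each had 1 listed end, with 3′ UTRs of 529 and 2222 nt and proteins of 712 and 606 codons. Rufy2 overlaps Hnrnph3 on the opposite strand and a gene model, Gm16135, on its own strand, whereas no annotated gene overlaps Rufy1 or Rufy3.

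**Figure D1:**
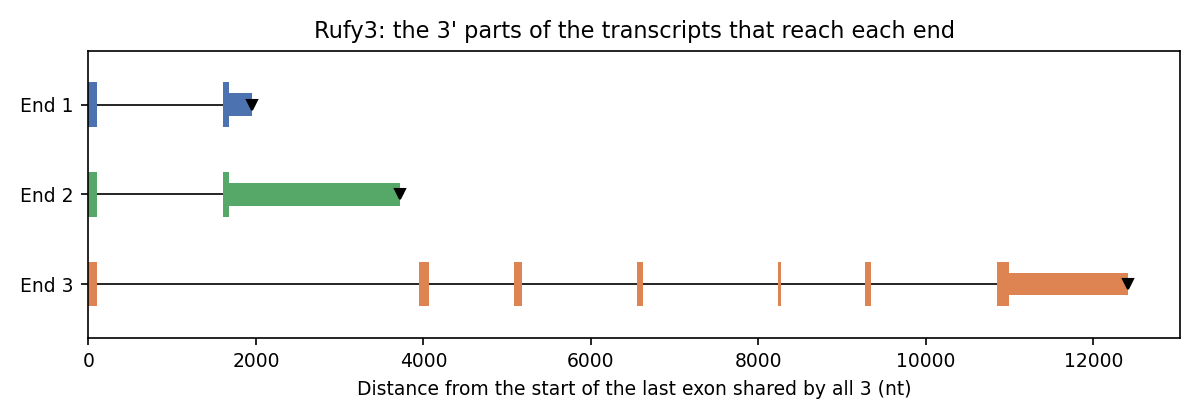
Exons of the Rufy3 transcripts that reach ends 1, 2 and 3, drawn to scale from the start of the last exon shared by all 3 (x axis, nt). Tall boxes are coding sequence, low boxes 3′ UTR, lines introns and triangles 3′ ends; ends 1 and 2 share a terminal exon and end 3 uses 6 further exons.

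The last 30 nt before each end, from the GENCODE vM21 transcripts (GRCm38) with the same IDs and the same ends, are shown because they hold the signal for cleavage and polyadenylation. Capitals mark the hexamer AATAAA.
Rufy3 end 1, chr5:88640899-88640928, plus strand: cgttaaataccaAATAAActttgagaaata
Rufy3 end 2, chr5:88642667-88642696, plus strand: gtactagAATAAAaacaaaacaaaaaaata
Rufy3 end 3, chr5:88651363-88651392, plus strand: agttaggggaAATAAAattagtactactaa
Rufy2, chr10:63013926-63013955, plus strand: ttaaAATAAAtgtgaattttataaatcgaa
Rufy1, chr11:50389286-50389315, minus strand: tcctttatttttcactcttgtacagacaaa
All 3 Rufy3 ends and the Rufy2 end held AATAAA, 12, 17, 14 and 20 nt before the end, so the Rufy3 ends did not differ in having the hexamer. Of 12847 ends of the table that matched a transcript end (of 14536), 60.4% held AATAAA in this window on the transcribed strand. The Rufy1 end held neither AATAAA nor ATTAAA, the variant that 13.7% of the ends held without AATAAA. The stretch before Rufy3 end 2 stood out in composition. It had 17 A in its last 20 nt, and only 1.02% of the matched ends had 15 or more. In the last 100 nt, T made up 36, 29 and 28 positions before Rufy3 ends 1, 2 and 3, against a median of 32 over the matched ends.

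HuD cells had more 3′ end reads at the proximal terminal exon of Rufy3, while those at the distal exon overlapped between the groups. At end 1 the level was 126, 110 and 129 CPM (counts scaled to the library total, with TMM factors) in control libraries 1 to 3 and 303, 280 and 328 CPM in HuD libraries 1 to 3. Every HuD library was above every control library, with means of 122 ± 9.94 and 304 ± 23.9 CPM (SD, n = 3 each), a ratio of 2.50. Across all ends with at least 100 counts in every library, 5.94% were likewise higher in all 3 HuD libraries. That contrast chose the gene, so nothing is read from it.

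End 2, in the same terminal exon, had 22.9, 19.3 and 25.7 CPM in control cells and 58.9, 47.1 and 62.3 CPM in HuD cells. The means of 22.7 ± 3.20 and 56.1 ± 8.01 CPM gave a ratio of 2.48, almost that of end 1. Within the shared exon the balance of both ends was the same in either group. End 2 took 15.6% ± 0.88 of the reads of ends 1 and 2 in control cells and 15.5% ± 1.02 in HuD cells, and the groups overlapped.

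End 3 had 75.0, 45.5 and 76.5 CPM in control cells and 62.7, 37.7 and 67.4 CPM in HuD cells. The groups overlapped, with means of 65.6 ± 17.5 and 55.9 ± 16.0 CPM (SD, n = 3 each) and a ratio of 0.852. Library 2 was the lowest of its group in both. Compared by replicate number, which ties 3′ end libraries that deviate together, HuD over control was 0.835, 0.830 and 0.882, so end 3 was lower in each of the 3 pairs. The same pairs gave 2.41, 2.54 and 2.54 at end 1 and 2.57, 2.44 and 2.42 at end 2.

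**Figure D2:**
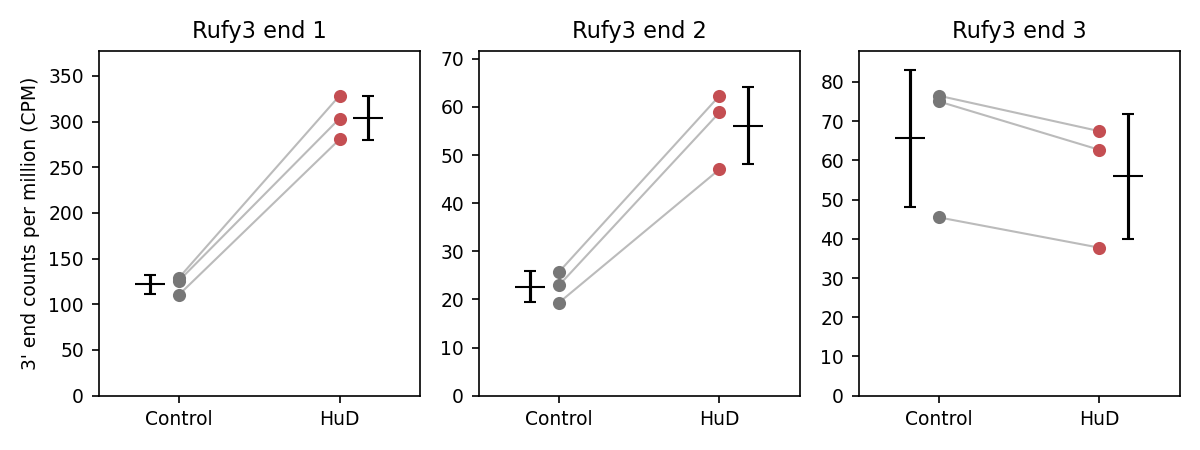
Level of each Rufy3 3′ end (y axis, CPM, scale differs between panels) in the 3 control and the 3 HuD libraries. Points are libraries, lines join libraries with the same replicate number, and bars give the mean ± SD; ends 1 and 2 are higher in every HuD library and end 3 overlaps between the groups.

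The share of Rufy3 reads at end 3 was lower in HuD cells. It was 33.5%, 25.9% and 33.1% in control libraries 1 to 3 and 14.8%, 10.3% and 14.7% in HuD libraries 1 to 3. The highest HuD share was below the lowest control share. These shares rest on 1877 to 2851 Rufy3 counts per control library and 4153 to 5386 per HuD library, and their 95% Wilson intervals reached from 24.0% to 35.3% in control cells and from 9.44% to 15.8% in HuD cells. The intervals cover counting error only, since the reads are not shown to be independent molecules. The mean share was 30.8% ± 4.25 in control and 13.3% ± 2.55 in HuD cells (SD, n = 3 each), a change of -17.6 percentage points. The pairs gave -18.8, -15.6 and -18.4 points. End 1 went from 58.4% ± 4.05 to 73.3% ± 3.04 and end 2 from 10.8% ± 0.48 to 13.4% ± 0.51. The proximal exon had 2.29 ± 0.49 reads for each read of the distal exon in control cells and 6.75 ± 1.67 in HuD cells.

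**Figure D3:**
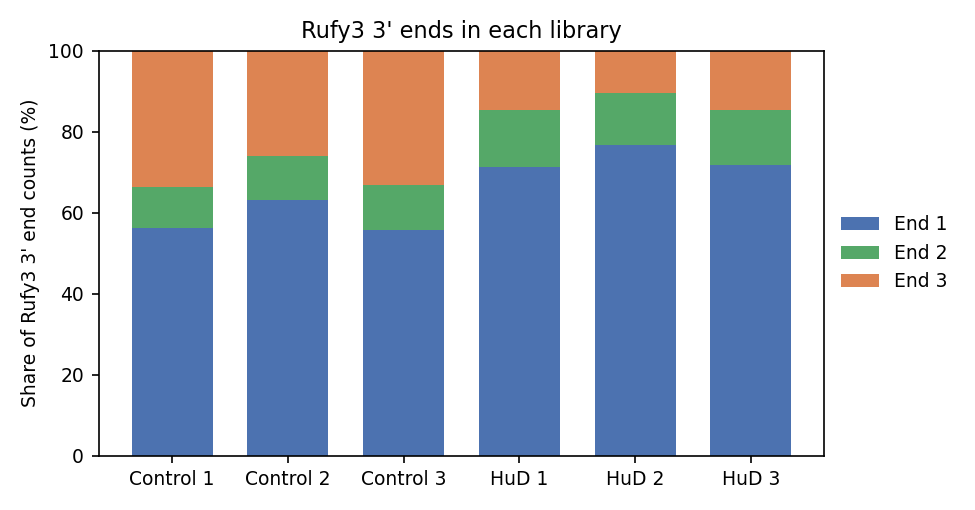
Share of the Rufy3 3′ end counts (y axis, %) at ends 1, 2 and 3 in each of the 6 libraries (x axis). End 3 takes 25.9% to 33.5% in control and 10.3% to 14.8% in HuD libraries.

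Beside other genes, the share change of Rufy3 lay at the edge of the distribution. Among 1222 genes with at least 2 merged ends and 100 counts in every library, it had the largest change at the most distal end. The median size was 1.04 points and the next largest 17.0 points. In 6.79% of these genes the distal share was lower in all 3 HuD libraries. Because this change chose Rufy3, its rank is a description. Where the merged ends were added up or left separate, each pair of ends 1 nt apart entered doubly and the change was -11.2 points, from 18.3% to 7.13%.

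**Figure D4:**
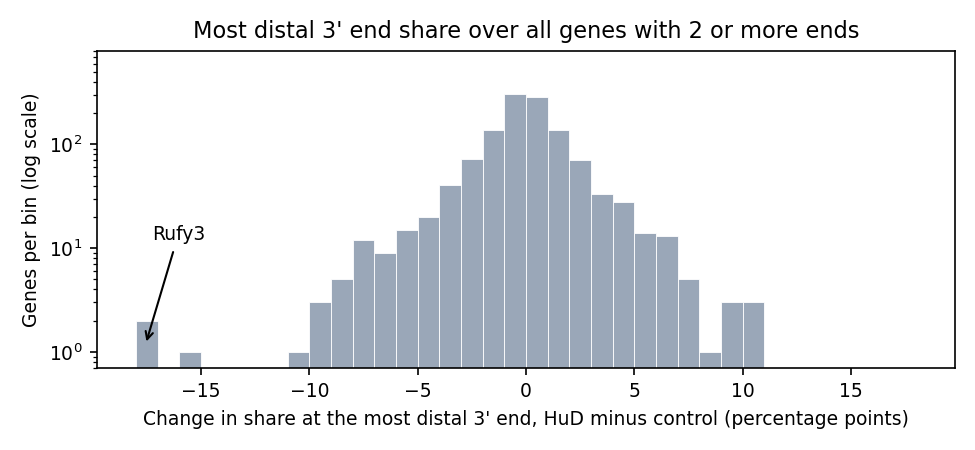
Number of genes (y axis, log scale) by change in the share of reads at the most distal 3′ end (x axis, HuD minus control, percentage points, bins of 1), for 1222 genes. Rufy3, at -17.6, lies in the lowest bin.

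With all 3 ends summed, Rufy3 had 224, 175 and 231 CPM in control cells and 425, 365 and 458 CPM in HuD cells. All HuD libraries were above all control libraries, as in 5.91% of 5985 genes with at least 100 counts in every library. The means of 210 ± 30.4 and 416 ± 47.0 CPM gave a ratio of 1.98, which was the largest rise among those genes. That rank comes from the libraries and contrast that chose Rufy3, so it too is a description. Rufy1 and Rufy2 were far lower at their listed ends and did not separate the groups there. The Rufy1 end had 12.2, 10.3 and 11.7 CPM in control and 12.9, 9.59 and 15.2 CPM in HuD cells, and the Rufy2 end 11.3, 9.80 and 13.5 CPM and 14.9, 7.39 and 12.4 CPM. Both genes overlapped between the groups, on counts of 84 to 179 a library. Having 1 listed end each, they offer no share to compare. The summed 3′ end CPM of Rufy3 in control cells was 18.5 times that of Rufy1 and 18.2 times that of Rufy2, and ends outside the table were not analysed here.

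RNA-Seq showed the same direction for Rufy3 at a smaller size, without a call after adjustment. Before the members, Elavl4 was checked. Its level was 78.3 and 97.4 CPM in total RNA of control cells and 237 and 212 CPM in HuD cells (edgeR quasi-likelihood test, log2 difference 1.35, adjusted p = 0.0866). The listed 3′ ends of mouse Elavl4 had 79.9 ± 28.4 CPM in control and 56.9 ± 15.4 CPM in HuD cells (SD, n = 3 each), which does not check the human transgene. No gene passed an adjusted p of 0.05 (percent called 0.0%) in total RNA, in polysomal RNA or in their ratio, with 265 genes higher and 129 lower in total RNA at an unadjusted p under 0.05. DESeq2 called 1 gene in total RNA (Elavl4), 3 in polysomal RNA (Elavl4, Arxes2 and Marcks) and 0 in the ratio, none of them a RUFY gene. Arxes2 and Marcks are named after their values were seen. In the ratio, 61 genes were higher and 85 lower at an unadjusted p under 0.05. In polysomal RNA these were 341 and 281.

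In total RNA Rufy3 had 183 and 193 CPM in control cells and 234 and 258 CPM in HuD cells. Both HuD libraries were above both control libraries, as for 15.1% of all genes tested. The log2 difference was 0.39 (SE 0.12, 1.31-fold), with an unadjusted p = 0.00954 and an adjusted p = 1.00 over 14906 genes by the edgeR quasi-likelihood test. At an unadjusted p under 0.05, 1.78% of genes were called higher. The difference was as large or larger in 0.196% of the 9702 genes with a mean of at least 10 CPM. In polysomal RNA Rufy3 had 184 and 232 CPM in control cells and 242 and 271 CPM in HuD cells. The groups again did not overlap, as for 14.1% of genes, and the log2 difference was 0.30 (SE 0.12, 1.23-fold, unadjusted p = 0.0307, adjusted p = 0.969). Without polysomal control library 2, which stood apart, the difference for Rufy3 was 0.48 (adjusted p = 0.592, edgeR), and without control library 1 it was 0.15 (adjusted p = 0.438, edgeR).

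Set side by side, the Rufy3 ratio of HuD to control was 1.98 at its 3′ ends and 1.31 in total RNA. RNA-Seq counts reads along the whole gene and cannot separate the ends. Shorter transcripts give fewer RNA-Seq fragments. With each end's CPM weighted by the length of its annotated transcript (2077, 4049 and 3536 nt for ends 1, 2 and 3), the 3′ end ratio was 1.83. The 3′ end counts had also chosen Rufy3. The parts of length, of that choice and of other differences between the assays were not tested. As bulk samples, these libraries cannot tell apart more RNA per cell and more cells with the RNA.

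Rufy2 had 46.5 and 44.5 CPM in total RNA of control cells and 53.6 and 51.7 CPM in HuD cells. Both HuD libraries were above both control libraries, as for 15.1% of all genes tested. The log2 difference of 0.21 (SE 0.09, unadjusted p = 0.0421, edgeR) had an adjusted p = 1.00. In polysomal RNA it was 0.13 (SE 0.09, adjusted p = 0.969), from 45.5 and 53.0 to 53.8 and 53.5 CPM, and it was 0.25 without polysomal control library 2 and 0.019 without control library 1. Rufy1 had 38.7 and 38.0 CPM in control and 39.4 and 36.4 CPM in HuD cells in total RNA, with a log2 difference of -0.02 (SE 0.11). Its polysomal values of 37.3 and 47.2 CPM in control and 37.7 and 37.2 CPM in HuD cells gave -0.17 (SE 0.11, adjusted p = 0.969), with the lower control library beside the HuD libraries. The value turned to 0.015 without polysomal control library 2 (adjusted p = 0.992, edgeR) and was -0.33 without control library 1 (adjusted p = 0.0782, edgeR).

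**Figure D5:**
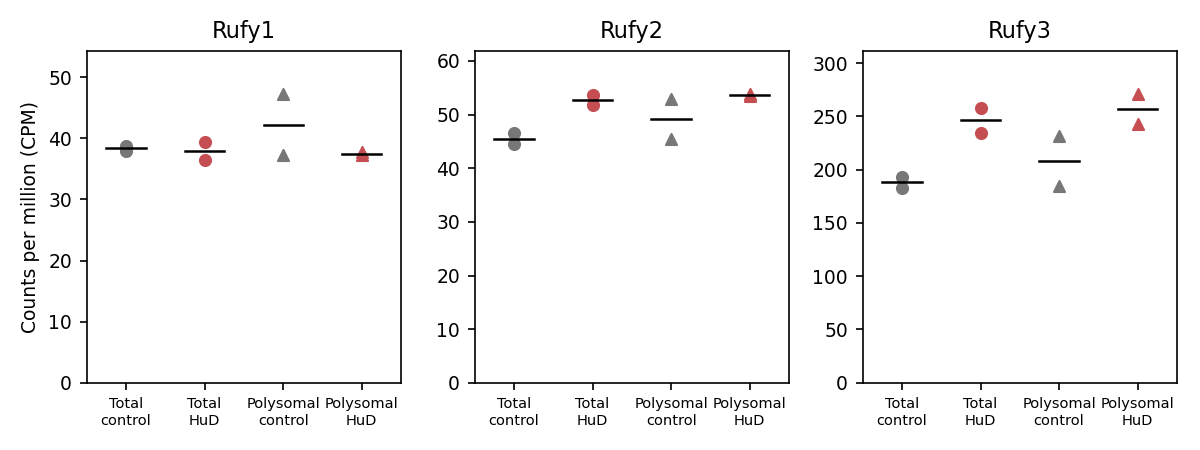
Level of Rufy1, Rufy2 and Rufy3 (y axis, CPM, scale differs between panels) in total RNA (circles) and polysomal RNA (triangles) of control (grey) and HuD cells (red). Points are the 2 libraries of a group and lines their mean; Rufy3 is higher in HuD cells in both fractions and polysomal control libraries spread more than the others.

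The levels of the 3 genes in polysomal RNA lay close to those in total RNA, and no member was called. Each level was scaled to its library total, so it does not give the share of a gene's RNA on polysomes. In control cells the log2 difference of polysomal minus total RNA was 0.13 for Rufy1, 0.11 for Rufy2 and 0.14 for Rufy3, with adjusted p-values of 0.620, 0.611 and 0.618, where 0.174% of genes were called. Without polysomal control library 2 the values were -0.050, -0.0095 and -0.038, and without control library 1 they were 0.30, 0.22 and 0.30, so the sign rested on library 2. In HuD cells the differences were -0.02, 0.03 and 0.06, where 0.537% of genes were called and none of the members was. The change in this ratio between HuD and control cells was -0.15 (SE 0.16), -0.08 (SE 0.13) and -0.08 (SE 0.17). Without polysomal control library 2 these were 0.029, 0.034 and 0.094, and without control library 1 they were -0.32, -0.19 and -0.24, so this sign rested on library 2 as well.

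Per length of exon, Rufy3 was the highest of the 3 in total RNA. Length-scaled values (FPKM, CPM over the 10214, 2764 and 8108 nt of annotated exon, in kilobases) were 18.4 ± 0.69 for Rufy3, 13.9 ± 0.19 for Rufy1 and 5.61 ± 0.18 for Rufy2 in control cells (SD, n = 2 each). Rufy3 was 1.33 times Rufy1 and 3.28 times Rufy2 on this scale. The 2 libraries of each gene lay apart from those of the next, but the ratios also depend on the length used. Transcripts that reach the listed ends are 2077 to 4049 nt long for Rufy3, 2688 nt for Rufy1 and 4130 nt for Rufy2. By summed CPM of the listed 3′ ends in control cells, Rufy3 was 18.5 times Rufy1, and Rufy1 was 0.985 times Rufy2.

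The CRAC table held 0 sites on Rufy1, Rufy2 and Rufy3. Replicates were pooled in that table, and its sites had at least 6 reads and 3 deletions in HuD cells, so weaker sites cannot be seen. Of 12953 protein-coding genes with RNA-Seq counts, 9.90% had a site. Among the 5143 genes with a mean control count between those of Rufy1 and Rufy3 it was 14.2%, so most genes at these levels had no site in the table. AU-rich letters were counted on the transcribed strand of the 3′ UTRs. The pentamer ATTTA stood 1, 1 and 0 times in Rufy3 between the stop codon and end 1, from end 1 to end 2 and before end 3, and 0 times in Rufy1. For the Rufy3 stretches to end 1 and from end 1 to end 2, 40.7% and 88.9% of UTRs of like length had as many or more. At least 1 stood in 80.4% and 46.4% of UTRs of like length to those of end 3 and Rufy1. Rufy2 held 10 (overlaps counted), a number that 4.17% of 552 UTRs of like length reached. The cores ATTT, CTTT and GTTT, which the pentamer overlaps, together matched 6, 31 and 28 times in the Rufy3 stretches, 11 times in Rufy1 and 63 times in Rufy2, and 46.5%, 68.9%, 55.5%, 45.0% and 29.2% of UTRs of like length had as many or more.

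Genes that work with RUFY proteins on endosomes and lysosomes did not pass the test either. The list held 29 genes, among them the GTPases Arl8a, Arl8b and Rab7, motor adaptors and the BORC complex that places lysosomes, and 27 were tested. With HuD, 0 of 27 had an adjusted p under 0.05 in total RNA, polysomal RNA or their ratio by edgeR. At an unadjusted p under 0.05, 2 were higher and 0 lower in total RNA, against 1.78% and 0.865% of all genes. In polysomal RNA these were also 2 and 0, against 2.29% and 1.89%, and in the ratio 0 and 0, against 0.409% and 0.57%. The median log2 differences were 0.01, 0.07 and 0.04, beside -0.004, -0.01 and -0.01 over all genes.

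The smallest unadjusted p in total RNA belonged to Mapk8ip3, the motor adaptor JIP3 of axonal transport. It had 129 and 147 CPM in control and 155 and 168 CPM in HuD cells, a log2 difference of 0.23 (SE 0.10, unadjusted p = 0.0396, adjusted p = 1.00, edgeR). In polysomal RNA it belonged to Arl8a, the lysosomal GTPase that links lysosomes to motors. Its polysomal levels were 113 and 105 CPM in control and 131 and 133 CPM in HuD cells (0.27, SE 0.08, unadjusted p = 0.00838, adjusted p = 0.969, edgeR). For the ratio it was Rab5c, a GTPase of early endosomes (0.21, SE 0.12, adjusted p = 1.00, edgeR). Of 5 tested genes that bear on neurite shape with Rufy3, such as Fscn1 and the Rap2 GTPases, 0 passed in any of the 3 comparisons, also at an unadjusted p under 0.05. Tiam2, an activator of Rac, had the smallest p in total RNA (0.21, SE 0.13, adjusted p = 1.00, edgeR), and Rap2c in polysomal RNA (0.15, SE 0.10, adjusted p = 0.969, edgeR) and in the ratio (0.22, SE 0.14, adjusted p = 1.00, edgeR). The medians of these 5 were -0.004, 0.06 and 0.08.

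Some of these partners were in the CRAC table, each in the 3′ UTR and without control reads, which the listing of sites penalized. Beside the 9.90% of protein-coding genes with a site, and 14.2% at levels from that of Rufy1 to that of Rufy3, they were 10 of the 29 genes of the endosome and lysosome list (Arl8a, Bloc1s2, Eea1, Kif5b, Rab11a, Rab5a, Rab5b, Rab5c, Rab7 and Snapin) and 2 of the 7 of the neurite list (Fscn1 and Dbn1). The highest coverage was on Arl8a, with 82 and 52 reads at 2 sites. The 2 sites with over 20 reads and deletions in nearly all of them are shown, as the heptamer of the table placed on the GRCm38 transcript, with the run of U in capitals.
Rab5b, chr10:128678263-128678269, minus strand, 48 deletions in 51 reads: agUUUgc
Dbn1, chr13:55473822-55473828, minus strand, 25 deletions in 26 reads: agUUUUa
Rab5b is a GTPase of early endosomes and Dbn1 encodes drebrin, an actin-binding protein of neurites. Eea1, Rab7, Rab5b, Snapin and Fscn1 also had more than 1 site. The test of a difference between these lists and other genes was not run.

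Genes with a pattern like that of the members are named for description. Over the 6 3′ end libraries, the distal share of Rufy3 was most like that of Pdlim7, an actin-associated scaffold (Pearson's r = 0.959), Fbxo7, a ubiquitin ligase subunit (0.950), and Srpk1, a kinase of splicing factors (0.933), among 696 genes. Pdlim7 went from 70.2% ± 1.69 to 54.5% ± 3.89 of its reads at the distal end (SD, n = 3 each), while Fbxo7 and Srpk1 changed by -4.77 and -3.36 points. Over the 8 RNA-Seq and POL-Seq libraries, log2 CPM of Rufy3 was most like that of Disp2 (0.975), Cdc37l1 (0.969) and Slc25a27 (0.955). For Rufy2 these were Sars (0.959), Renbp (0.959) and Chd2 (0.927), and for Rufy1 Mphosph10 (0.984), Alms1 (0.973) and Usp4 (0.972), each among 9701 genes. Between the members r was 0.896 for Rufy2 and Rufy3, 0.25 for Rufy1 and Rufy2 and 0.002 for Rufy1 and Rufy3. The points share libraries and depth, and the groups or 1 library can set much of such an r. For Rufy1, polysomal control library 2, which stood apart, had 47.2 CPM and the other libraries 36.4 to 39.4 CPM. No r was computed without that library.

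Totals were 21296012 to 36284728 counts in RNA-Seq and POL-Seq libraries and 10154407 to 12295080 in 3′ end libraries after merging. Neuronal markers were present, with Tubb3 at 599 and Nefl at 179 CPM in total RNA of control cells, and the motor neuron marker Isl1 at 40.9 CPM. Chat, which defines cholinergic neurons, was at 0.524 CPM and Stmn2 at 0.307 CPM, both near 0, and Mnx1, which marks motor neurons, was not analysed here. The astrocyte marker Gfap had 0.574 CPM and the oligodendrocyte marker Mbp 5.81 CPM.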

How the data were processed

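Per the labels, reads were processed with TopHat2 2.0.14 or STAR 2.5.3a against GRCm38.p4. The authors deposited whole-number counts per gene (RNA-Seq, POL-Seq), counts within 10 nt of annotated transcript ends (3′ end sequencing) and a table of CRAC sites with read coverage pooled over replicates, after collapsing duplicates and penalizing the control signal. The strand used in gene counting is not given in the sources used here. The 3 genes and all lists were chosen with earlier results of these data known. Named list genes were those with a CRAC site or with the smallest p in a comparison with HuD.

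Gene counts of 8 libraries were fitted together in edgeR 4.0.16 (R 4.3.3; TMM, filterByExpr, 4 group means, quasi-likelihood test, Benjamini-Hochberg over 14906 genes). DESeq2 1.42.0 was an alternative. On simulated counts for total RNA, adjusted calls recovered 47.5% of genes changed 1.5-fold, 78% at 2-fold and 97.5% at 4-fold (14846, 14845 and 14839 genes tested), and for the polysome-to-total ratio 0%, 63% and 91.5% (14839, 14846 and 14849 genes tested). The simulation planted 200 changed genes and drew independent noise with no library standing apart, so its rates need not hold for the real libraries. 3′ ends within 20 nt were merged, and shares and TMM-scaled CPM computed per library. Same-numbered 3′ end libraries deviated together (r = 0.459, 0.782 and 0.618 over 5985 genes) and are given as pairs, although HuD library 1 correlated about as much with control library 3 (0.469), and HuD library 3 with control library 1 at 0.162. Replicates differed by more than sampling noise (chi-square per degree of freedom 7.91 to 39.6).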

Additional observations from a re-analysis of the deposited data

How the results depend on the processing

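Under 186 recomputed values for the 3 genes in RNA-Seq and POL-Seq, 0 reached an adjusted p under 0.05 and 11 had the opposite sign, all on leaving out 1 library. The lowest adjusted p was 0.0526. For Rufy3 in total RNA the log2 difference ran from 0.32 to 0.46 and the adjusted p was never below 0.779. In polysomal RNA it ran from 0.15 to 0.48, with an adjusted p never below 0.438. RLE size factors and no filter called none of the 3 genes, and moved no count of calls by over 1.5 times. With the replicate number as a block, which in these 2-library groups is shared only as a number (r of deviations 0.188 to 0.387), Rufy3 had adjusted p = 0.779 in total and 0.519 in polysomal RNA by edgeR. The block gave 0 genes called in the 3 comparisons with HuD, 41 for polysomal against total RNA in control cells (main 26) and 416 in HuD cells (main 80). DESeq2 called 1, 3, 0, 67 and 239 genes in total RNA, polysomal RNA, the ratio, and polysomal against total RNA in control and HuD cells, and the 4 total RNA libraries alone gave 1. The cause was not tested.

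Leaving out 1 library at a time, where the lone library is assumed to vary like the other groups, gave 0 to 1 genes called in total RNA, 0 to 372 in polysomal RNA, 0 to 47 in the ratio, 0 to 2145 for polysomal against total RNA in control cells and 0 to 411 in HuD cells. The highest counts in polysomal RNA (372), the ratio (47) and polysomal against total RNA in control cells (2145) came without polysomal control library 1, which leaves library 2, the one that stood apart, alone in its group. Without library 2 these were 1, 0 and 27, and the count in HuD cells was 411. For Rufy1, Rufy2 and Rufy3 the log2 values ranged from -0.074 to 0.039, 0.18 to 0.24 and 0.32 to 0.46 in total RNA, from -0.33 to 0.015, 0.019 to 0.25 and 0.15 to 0.48 in polysomal RNA, and from -0.32 to 0.029, -0.19 to 0.034 and -0.24 to 0.094 in the ratio. For polysomal against total RNA they ranged from -0.050 to 0.30, -0.0095 to 0.22 and -0.038 to 0.30 in control cells and from -0.073 to 0.041, 0.0033 to 0.054 and -0.020 to 0.14 in HuD cells.

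The change in the Rufy3 distal share was -11.2 points with no merging and -11.2 with merged ends summed, the same with 50 nt merging, and -20.03 to -16.1 leaving out 1 library. The summed 3′ end level of Rufy3 (mean log2 difference 0.99) ranged from 0.86 to 1.08 and was 1.13 with no merging, an alternative chosen after seeing the data. For Rufy1 it was 0.12 (-0.026 to 0.31) and for Rufy2 -0.04 (-0.26 to 0.25). The shares of Rufy1 and Rufy2 stay at 100% by construction. Counts near 100 a library limit what can be seen for Rufy1 and Rufy2.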
